A study of Mus musculus with 4 samples.

Results

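The genes that encode RNA polymerase II, its general transcription factors and Mediator were examined by ATAC-seq, which marks accessible DNA by where a transposase can insert, in mouse thymocytes with and without Chaf1b. Members were the protein-coding genes whose symbol begins with Polr2, with Gtf2, or with Taf or Med followed by a number, in the RefSeq gene table of GRCm38.p6. This gave 83 of 21883 genes on chromosomes 1 to 19, X and Y: 13 Pol II subunit genes, 16 Gtf2 genes, 24 Taf genes and 30 Mediator genes. A gene end was called in a list when a listed region lay within 1000 bp of either annotated end of the gene, and was kept when it was called in both lists.

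CD4+CD8+ double-positive (DP) thymocytes were sorted from the thymus of C57BL/6 mice, 50000 cells per sample. The WT group was CHAF1b floxp/floxp without Cre and the KO group was Cd4-cre;CHAF1b floxp/floxp, so that both carried the floxed alleles and differed in the Cre. Cd4-cre acts from about the DP stage onward. The lists hold no value that checks the deletion of Chaf1b. Ages and the number of mice per sample are not stated in the labels. Each group had 2 replicates, which the authors merged into 1 list of accessible regions, so no difference between the groups has a replicate check or a test. All intervals are exact Clopper-Pearson 95% intervals and cover counting error only. A site missing from a list fell short of the calling threshold there, and may still have been open.

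Pol II transcribes protein-coding genes from a core promoter on which the general factors assemble. TFIID, made of TBP and its associated factors (TAFs), binds the promoter first, TFIIA and TFIIB follow, TFIIF brings the polymerase, and TFIIE recruits TFIIH, which opens the DNA and phosphorylates the tail of the largest subunit. Mediator, built from a head, a middle and a tail with a detachable kinase module, passes signals from activators to this assembly. Nearly all of these proteins are needed in every dividing cell, and a few members are tissue-specific copies or parts of other complexes. Chaf1b encodes a subunit of chromatin assembly factor 1, a chaperone that places new histones onto freshly copied DNA.

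The WT list held 15215 regions and the KO list 7645. The genome background, the number of reads expected anywhere by chance in the authors' peak calling, was 1.03 in KO and 1.37 in WT, which puts the relative depth of KO at 0.752. Of the 15 DP thymocyte markers, 9 had a WT region at an end and 1 of these, Cd8b1, also a KO region (11.1%, 0.281 to 48.2, an interval below the 59.4% of all WT-called genes). Cd4, Cd8a and Cd3e were among those with none in either list. The 59.4% covers all strengths of WT region, while the 9 called markers lacked the strongest. In the bins of WT fold enrichment defined below, 4 markers stood in the lowest, 5 in the middle and 0 in the highest. All genes were kept there at 27.3%, 59.1% and 91.7%. Of the markers, 1 of 4 was kept in the lowest bin and 0 of 5 in the middle. A loss particular to the markers was not tested. Among B cell markers 1 of 5 was called, Ebf1 in WT only, and the 5 myeloid, 6 stromal and epithelial and 4 erythroid markers had 0 calls.

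Most members had an accessible end in the full WT list, and fewer had one in the KO list, which is the shorter of the lists. In WT, 53 of 83 members were called (63.9%, interval 52.6 to 74.1), against 34.6% of all protein-coding genes. In KO, 25 of 83 were called (30.1%, 20.5 to 41.2), against 21.1%. The members called in both lists numbered 24, so 45.3% (31.6 to 59.6) of the WT-called members were kept, against 59.4% of all WT-called genes. A further 29 members were called in WT only, 29 in neither list, and 1, Med13l, in KO only, where 0.894% of all genes without a WT region were called. At these ends lay 56 WT regions and 25 KO regions. With the WT list limited to the length of the KO list by fold enrichment, 28.9% (19.5 to 39.9) of members were called in WT against the 30.1% in KO, so that the WT share was no longer the higher. In that setting 18 of 24 WT-called members were kept (75.0%, 53.3 to 90.2), against 77.8% of all WT-called genes.

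The members' WT regions had a lower median fold enrichment than those of all genes. Fold enrichment, the authors' summit pileup plus 1 over the local background plus 1, had a median of 6.32 over the 53 WT-called members (3.53 to 14.7) and of 7.24 over all WT-called genes. It was 7.91 in kept members and 5.59 in members called in WT only, against 8.58 and 5.90 over all genes. All WT-called genes were split into 3 bins of near-equal size by WT fold enrichment, with bounds at 6.29 and 8.45. In the lowest bin 6 of 26 members were kept (23.1%, all genes 27.3%), in the middle bin 8 of 15 (53.3%, all genes 59.1%) and in the highest 10 of 12 (83.3%, all genes 91.7%). Thus 26 of 53 members stood in the lowest bin, and in each bin the members' share was below that of all genes by less than the members' counting error.

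The kept share went up with the number of reads behind a region. Summit reads, the whole number of reads at the highest point of a region, were solved from the deposited fold enrichment and p. Multiplied by the relative depth, WT summit reads were under 10 at 20 members, of which 4 were kept (20.0%, all genes 18.8%). From 10 to under 14 reads, 2 of 10 were kept (20.0%, all genes 32.7%), and from 14 to under 20 reads, 8 of 13 (61.5%, all genes 67.0%). With 20 or more reads, 10 of 10 were kept (all genes 95.1%). Members called in WT only had a median of 13.0 WT summit reads and kept members 23.5.

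**Figure D1:**
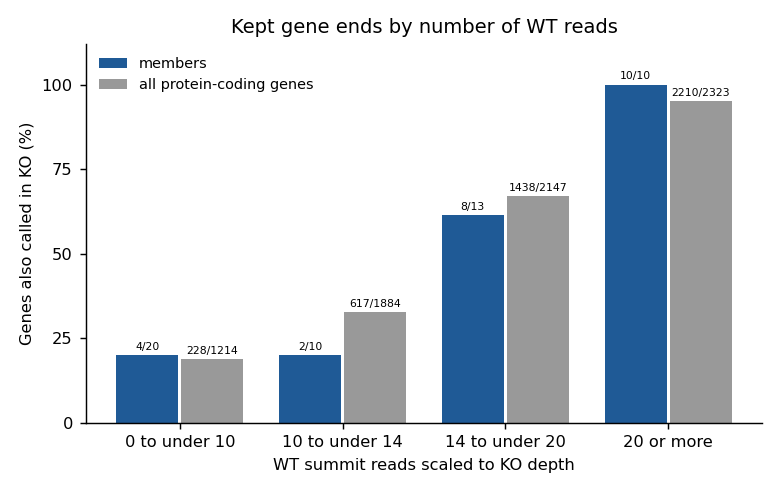
Share of WT-called genes also called in KO (y axis, %) by WT summit reads scaled to the KO depth (x axis), for members (blue) and all protein-coding genes (grey), with kept over WT-called genes above each bar. The members rise from 4 of 20 to 10 of 10, and the largest gap to all genes is at 10 to under 14 reads, 20.0% against 32.7%.

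By class, the members were set beside the 34.6% of all genes called in WT and the 59.4% of WT-called genes that were kept. Of the 13 Pol II genes, 5 were called in WT (38.5%, 13.9 to 68.4) and 4 of these were kept (80.0%, 28.4 to 99.5). Of the Gtf2 genes, 12 of 16 were called in WT (75.0%) and 5 kept (41.7%, 15.2 to 72.3). Of the Taf genes, 16 of 24 were called (66.7%) and 7 kept (43.8%, 19.8 to 70.1), and of the Mediator genes 20 of 30 (66.7%) and 8 kept (40.0%, 19.1 to 63.9). The intervals of the kept shares overlap for all 4 classes, and each holds the 59.4% of all genes. The order of the classes rests on the rule: the kept share of Pol II genes was 3 of 5 when the regions of the lists had to overlap by 1 bp, and 20.0% when they had to overlap by 50% of both, under the 33.3% of Gtf2, 25.0% of Taf and 30.0% of Mediator genes.

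**Figure D2:**
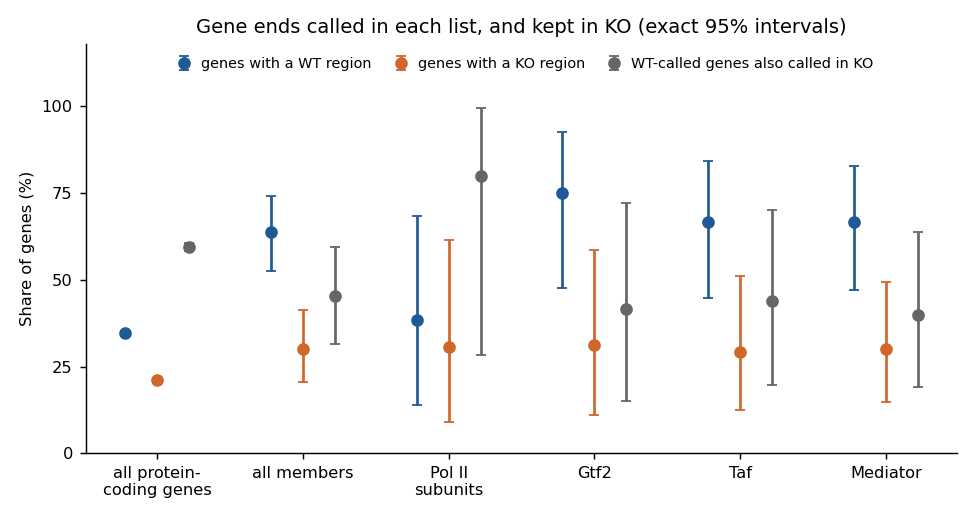
Share of genes (y axis, %) with a WT region (blue), with a KO region (orange), and of WT-called genes also called in KO (grey), for all protein-coding genes, all members and the 4 classes. Bars are exact 95% intervals, and the wide bars of the Pol II subunits rest on 5 WT-called genes.

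Promoter windows of RefSeq (GRCm38.p6, 250 bases before to 50 after a start) were matched for 72 members, with 87 windows in all. They were rich in CpG, with a median of 22.0 CpG per 300 bases against 13.0 over the 21262 windows of all protein-coding genes, and 58.3% against 56.3% GC. Windows of all kept genes also had a median of 22.0 CpG, but their median GC, 61.7%, was above that of the members. Short motifs were searched on both strands, and each gene was counted once, with a match in any of its windows. Shares are given for the 72 members, then for the 17491 protein-coding genes with a window, then for all kept genes among them. The GC box, GGGCGG, stood in 69.4%, 49.2% and 73.8%. The ETS core, CCGGAAG, stood in 34.7%, 12.9% and 22.8%. The NRF1 motif, GCATGCGC, stood in 11.1% (8 members), 3.93% and 6.22%. The YY1 motif, AAGATGGCG, whose start can overlap the end of the ETS core, stood in 6.94% (5 members), 2.14% and 3.70%. The letters of the TATA box, TATAAA, stood at any position of the window in 16.7%, 14.8% and 7.05%. Among members they lay 33 bases upstream of a start at Polr2a and 32 at Taf13. At the other members with a match they lay from 61 (Med28) to 246 (Taf5) bases upstream. The CRE, TGACGTCA, stood in 4.17% (3 members), 2.54% and 3.81%. The ZNF143 motif, ACTACAATT, stood in 2.78% (2 members), 0.577% and 1.10%. The ETS core was in 13 of 25 members called in WT only and in 4 of 19 kept members, against 23.5% and 22.8% over all genes of the same calls. A match describes letters and is not a bound site.

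Of these windows, 6 are shown because the results turn on their genes: the catalytic subunit (Polr2a), the kept member with the smallest KO share of reads (Gtf2e1), the WT-only member with the highest fold enrichment (Taf13), a member with more reads in KO (Gtf2f1), and the strongest Taf and Mediator regions (Taf10 and Med19). Each reads 5′ to 3′ on the strand of its gene, with the start after 250 bases, and capitals mark the motif matches named above.
Polr2a: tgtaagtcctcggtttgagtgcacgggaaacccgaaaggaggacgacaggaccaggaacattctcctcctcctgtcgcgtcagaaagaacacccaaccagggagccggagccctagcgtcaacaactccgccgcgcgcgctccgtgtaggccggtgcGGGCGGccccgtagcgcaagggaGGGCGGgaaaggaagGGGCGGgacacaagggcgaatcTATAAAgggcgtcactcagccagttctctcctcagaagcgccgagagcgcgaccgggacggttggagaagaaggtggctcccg
Gtf2e1: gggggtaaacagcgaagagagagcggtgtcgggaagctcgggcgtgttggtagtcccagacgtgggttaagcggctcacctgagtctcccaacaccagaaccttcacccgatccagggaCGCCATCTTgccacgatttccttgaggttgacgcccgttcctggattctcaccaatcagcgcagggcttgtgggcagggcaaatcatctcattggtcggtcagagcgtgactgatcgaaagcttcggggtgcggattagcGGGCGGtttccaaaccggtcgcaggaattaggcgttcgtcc
Gtf2f1: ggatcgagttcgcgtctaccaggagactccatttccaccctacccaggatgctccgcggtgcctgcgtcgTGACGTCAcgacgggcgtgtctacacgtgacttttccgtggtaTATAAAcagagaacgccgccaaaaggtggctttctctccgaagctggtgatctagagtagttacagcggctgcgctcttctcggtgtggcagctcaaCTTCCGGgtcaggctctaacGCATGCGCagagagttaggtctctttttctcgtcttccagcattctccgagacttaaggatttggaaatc
Taf13: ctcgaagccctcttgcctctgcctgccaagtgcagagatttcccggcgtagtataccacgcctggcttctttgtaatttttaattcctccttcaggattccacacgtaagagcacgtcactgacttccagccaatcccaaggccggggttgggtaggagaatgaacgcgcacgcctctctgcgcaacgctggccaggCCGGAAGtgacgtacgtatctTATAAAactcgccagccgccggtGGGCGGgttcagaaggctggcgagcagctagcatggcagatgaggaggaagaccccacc
Taf10: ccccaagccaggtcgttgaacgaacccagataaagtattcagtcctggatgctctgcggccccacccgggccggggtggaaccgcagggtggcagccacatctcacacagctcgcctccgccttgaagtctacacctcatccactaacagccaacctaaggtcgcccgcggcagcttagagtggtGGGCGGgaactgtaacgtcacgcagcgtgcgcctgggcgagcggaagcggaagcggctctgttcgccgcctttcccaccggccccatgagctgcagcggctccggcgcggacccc
Med19: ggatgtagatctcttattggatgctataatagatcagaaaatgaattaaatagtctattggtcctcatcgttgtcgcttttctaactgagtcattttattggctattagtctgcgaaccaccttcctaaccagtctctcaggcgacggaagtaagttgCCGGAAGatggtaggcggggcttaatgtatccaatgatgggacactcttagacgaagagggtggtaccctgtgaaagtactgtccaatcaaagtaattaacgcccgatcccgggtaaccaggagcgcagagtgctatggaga
The Polr2a window (chr11:69758584-69758883, minus strand) held a TATA box 33 bases upstream of the start and 3 GC boxes at 55, 70 and 93 bases upstream. Taf13 (chr3:108571449-108571748, plus strand) also held a TATA box, 32 bases upstream, with an ETS core at 53. Gtf2f1 (chr17:57011239-57011538, minus strand) held a CRE, a TATAAA match 137 bases upstream, an ETS core and an NRF1 motif. Gtf2e1 (chr16:37539740-37540039, minus strand) held a YY1 motif and a GC box, Taf10 (chr7:105744289-105744588, minus strand) a GC box and Med19 (chr2:84678152-84678451, plus strand) an ETS core. WT regions covered all 300 bases at Polr2a, Gtf2e1, Taf10 and Med19, 294 at Taf13 and 145 at Gtf2f1. KO regions covered 300 at Taf10 and Med19, 223 at Polr2a, 207 at Gtf2f1, 179 at Gtf2e1 and 0 at Taf13.

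Regions lay on the starts rather than the 3′ ends. Of 44 WT-called members with a start in the promoter table, 36 (81.8%) had the summit of their strongest region within 250 bp of it, against 75.1% over all genes, and 1 had it more than 1000 bp away. The median summit was 64 bp upstream in WT, and 29 summits lay upstream and 14 downstream. In KO, 17 of 20 lay within 250 bp, with a median of 69 bp upstream. Median widths were 348 bp in WT and 271 bp in KO, against 384 and 310 bp over all genes. In 18 of 53 members (34.0%) the strongest WT region lay at the end of another protein-coding gene too, against 29.8% of all WT-called genes, so that its reads cannot be given to 1 of the 2 genes. Of these 18, 9 were kept.

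**Figure D3:**
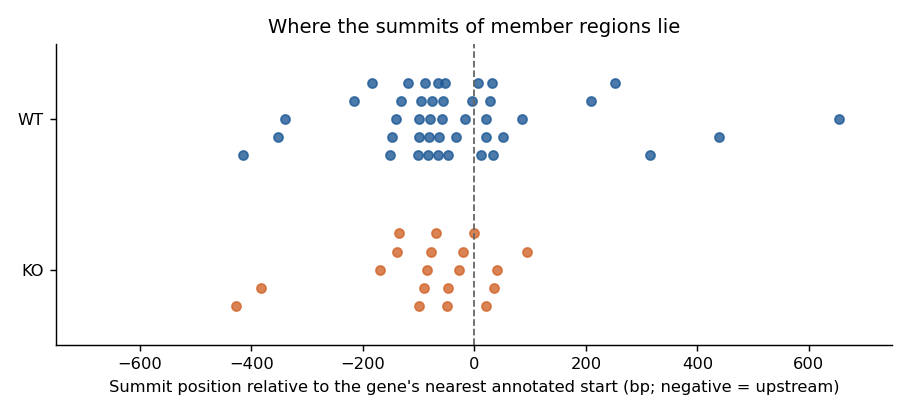
Summit of the strongest region of each called member in WT (blue, upper row) and KO (orange, lower row) relative to the nearest annotated start of the gene in bp (x axis, negative is upstream), for summits within 1000 bp. Points are spread vertically for legibility only, and most lie within 250 bp of the start.

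Of the Pol II subunits, Polr2a, Polr2b, Polr2d and Polr2h were called in both lists and Polr2j in WT only. Polr2a, which encodes the largest and catalytic subunit, had 15 summit reads in WT and 11 in KO, with fold enrichments of 6.15 and 5.61. Its WT region lies at an end of Slc35g3 too. Polr2d, whose product forms a stalk with that of Polr2g, had 27 and 22 summit reads and the highest fold enrichment of the class, 9.27 in WT and 9.43 in KO. Polr2h, shared with Pol I and Pol III, had 29 and 15 reads and fold enrichments of 6.70 and 6.72, in a region it shares with Clcn2. KO held 42.3% of the summed reads at Polr2a, 44.9% at Polr2d and 34.1% (20.5 to 49.9) at Polr2h, where the relative depth alone gives 42.9%. All 3 intervals hold the depth share.

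Polr2b, the second-largest subunit, was called in both lists by different regions. The WT summit lay 85 bp downstream of its start (chr5:77310427-77310757, 11 reads, fold enrichment 3.53, the lowest of all WT-called members) and the KO summit 428 bp upstream (chr5:77310030-77310246, 11 reads, 5.08). Both lie at the end of Noa1 as well. Polr2j, a small subunit that pairs with the product of Polr2c, had 13 reads in WT and a fold enrichment of 5.26. The other 8, Polr2c, Polr2e, Polr2f, Polr2g, Polr2i, Polr2k, Polr2l and Polr2m, had no region at an end in either list, as did 14187 of all 21883 genes. Of these 8, 4 are among the 5 subunits shared by the 3 polymerases. The share of those 5 called in WT, 20.0% (0.505 to 71.6), has an interval that holds the 34.6% of all genes.

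**Figure D4:**
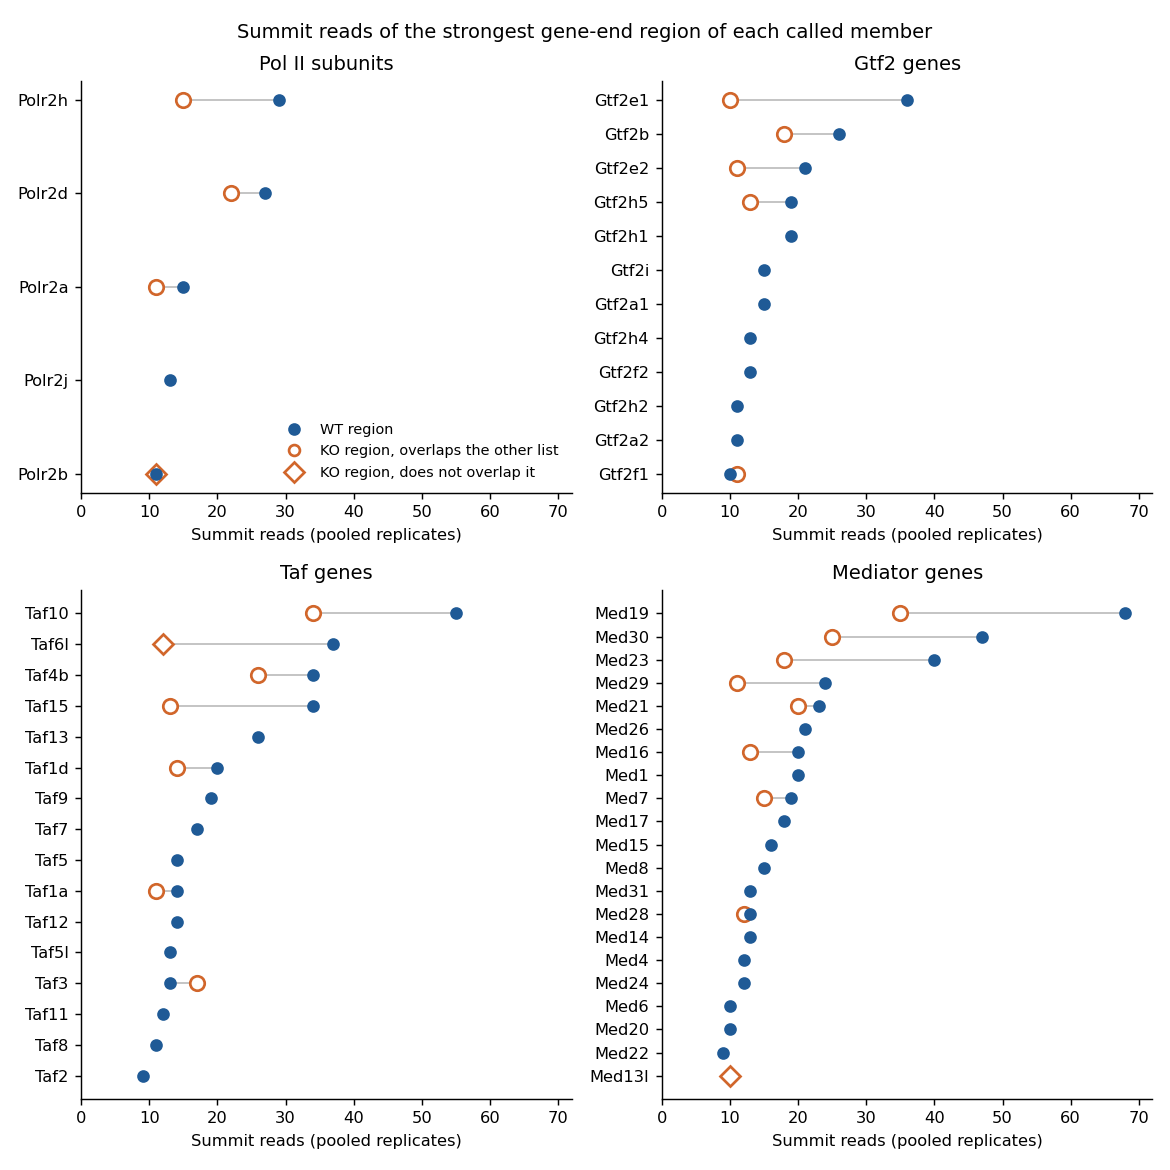
Summit reads of pooled replicates (x axis) at the strongest gene-end region of each called member in WT (filled blue) and KO (open orange), by class. A diamond is a KO region that overlaps no WT region, a grey line joins the lists, and members with the most WT reads, such as Med19 at 68 and Taf10 at 55, have a KO point.

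Among the general factors, TFIIB and both subunits of TFIIE were called in both lists, while TFIIA was called in WT only. Both TFIIA genes stood in the lowest bin of WT fold enrichment, where 27.3% of all genes were kept. Gtf2e2 stood in the middle bin (59.1%) and Gtf2b and Gtf2e1 in the highest (91.7%). A difference between the factors was not tested. Gtf2b, which encodes TFIIB, the factor that positions the polymerase at the start, had 26 summit reads in WT and 18 in KO, with fold enrichments of 9.06 and 7.54. Gtf2e1, the large subunit of TFIIE, had 36 reads in WT and 10 in KO, with fold enrichments of 11.9 and 4.82. Its KO share of reads, 21.7% (10.9 to 36.4), was the lowest of the 22 member regions compared. The interval lay under the 42.9% of the depth and the 38.5% of gene ends in general. It does not allow for the choice of the lowest share, and no test was made. The region was 745 bp wide in WT and 463 bp in KO, with the summit 76 bp upstream of the Gtf2e1 start in WT and 20 bp downstream in KO. The region lies at an end of the neighbour Rabl3 too, and the Rabl3 start was the nearest to the WT summit. Gtf2e2, the other TFIIE subunit, had 21 and 11 reads (34.4%, 18.6 to 53.2). Gtf2a1 and Gtf2a2, which encode TFIIA, had 15 and 11 WT reads, with fold enrichments of 4.37 and 5.06, and no KO region.

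The 2 subunits of TFIIF differed in their calls. Gtf2f1 was called in both lists with 10 reads in WT and 11 in KO and fold enrichments of 3.90 and 5.22. Gtf2f2 had 13 reads and a fold enrichment of 5.90 in WT and no KO region. Of the TFIIH genes, 4 of 5 were called in WT and 1 of these was kept (25.0%, 0.631 to 80.6). The interval holds the 59.4% of all WT-called genes, and 2 of the 4 stood in the lowest bin of WT fold enrichment. The kept gene was Gtf2h5, its smallest subunit, with 19 and 13 reads (8.40 and 6.36) in a region shared with Serac1. Gtf2h1, a core subunit, had 2 WT regions beside Hps5, with 19 and 14 reads and fold enrichments of 7.87 and 6.00. Gtf2h2, another core subunit, had 11 reads (4.44) and Gtf2h4 13 reads (4.52), all in WT only, and Gtf2h3 had no region. Gtf2i, which encodes TFII-I, a signal-responsive factor outside the basal set, was called in WT only by a region of 15 reads (5.76) beyond its 3′ end, 77728 bp from the start. Another WT region covered 220 bases of its promoter window, which lies inside the annotated gene. With a window of 500 bp Gtf2i was not called, and with 2000 bp Gtf2a1 was called in both lists. The added KO region of Gtf2a1 lay 1.97 kb from an end of the gene and did not overlap the WT region given above. Gtf2a1l, Gtf2ird1 and Gtf2ird2 had no region at an end. Gtf2ird1 had 4 WT and 3 KO regions inside the gene, and Gtf2ird2 had 1 WT region inside it.

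The TFIID genes were called in WT in 10 of 14 cases and 2 of these, Taf3 and Taf10, were kept, a share of 20.0% (2.52 to 55.6) against 59.4% of all WT-called genes. Of the 10, 5 stood in the lowest bin of WT fold enrichment, where 27.3% of all genes were kept and 1 of these 5 was. In the middle bin 0 of 3 were kept and in the highest 1 of 2. Taf10, a histone-fold subunit that TFIID shares with SAGA, had 55 summit reads in WT and 34 in KO, with fold enrichments of 13.0 and 12.0 at almost the same summit base, in a region shared with Tpp1. Taf3, which carries a reader domain for a promoter histone mark, had 13 reads in WT and 17 in KO, with fold enrichments of 5.74 and 7.20. Its KO share, 56.7% (37.4 to 74.5), was the highest of the members, and its interval holds the depth share.

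TFIID genes called in WT only included the strongest WT-only member, Taf13. Taf13, a histone-fold partner of Taf11, had 26 reads in WT (fold enrichment 10.4, chr3:108571455-108571933) and no KO region. Scaled to the KO depth this is 19.6 reads, at the top of the bin in which 67.0% of all genes were kept. Taf11 had 2 WT regions of 12 reads each (4.28 and 4.25) beside Anks1. Taf7, an inhibitor of the Taf1 acetyltransferase, had 17 reads (6.52). Taf9, a histone-fold partner of Taf6, had 2 regions of 19 and 14 reads (6.49 and 4.90) beside Ak6 and Rad17. Taf8 had 11 reads (3.77) and Taf2, which binds promoter DNA around the start, had 9 (4.22), the fewest of the class. Taf5 and Taf12 had 14 reads each (6.32 and 4.84). Taf1, Taf4, Taf6 and Taf9b had no region at an end.

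Taf genes outside the standard TFIID were kept in 5 of 6 cases, against 59.4% of all WT-called genes. The kept genes were Taf4b, Taf15, Taf6l, Taf1a and Taf1d, and Taf5l of SAGA was in WT only. Taf4b, Taf15 and Taf6l stood in the highest bin of WT fold enrichment, where 91.7% of all genes were kept. A difference from the TFIID genes was not tested. Taf15, an RNA-binding protein of the FET family, had 34 reads in WT and 13 in KO (12.5 and 6.31), a KO share of 27.7% (15.6 to 42.6) whose interval lay under the depth share of 42.9% and holds the 38.5% of gene ends in general. Taf4b, a cell-type-specific copy of Taf4, had 34 and 26 reads (10.6 and 9.18). Taf1a and Taf1d, subunits of the Pol I factor SL1, had 14 and 11 reads and 20 and 14 reads. Taf6l, a SAGA subunit, was called at different ends in the lists: the WT region lay at its start (37 reads, 11.4) and the KO region at the other end of the gene, next to the start of Tmem179b (12 reads, 5.75). Thus at its start Taf6l had the most WT reads of any member without an overlapping KO region. Taf1b and Taf1c of SL1 and the copies Taf7l and Taf7l2 had no region.

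Mediator genes are given by module, beside the 34.6% of all genes called in WT and the 59.4% kept, with no test between modules. In the head, 5 of 7 genes were called in WT (Med6, Med8, Med17, Med20 and Med22) and 0 in KO (0 of 5 kept, which leaves up to 52.2% by counting error). Med17, the scaffold of the head, had 18 reads (7.54), Med8 15 (6.50), Med20 10 (4.55) beside Bysl, Med6 10 (4.64) and Med22 9 (3.65) beside Rpl7a. The head thus had 9 to 18 WT reads a gene, and its fold enrichment had a median of 4.64, with 3 of 5 genes in the lowest bin, where 27.3% of all genes were kept. Med14, the backbone that joins the modules, had 13 reads (5.90) in WT only.

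In the middle, 7 of 9 genes were called in WT and Med7, Med19 and Med21 were kept. Med19, which contacts transcription factors, had 68 summit reads in WT and 35 in KO, with fold enrichments of 14.7 and 10.8, the highest WT values of all members, at the same summit base and in a region shared with Tmx2. Its KO share was 34.0% (24.9 to 44.0). Med7 had 19 and 15 reads and Med21 23 and 20. Med1, the subunit bound by nuclear receptors, had 20 reads (8.47) in WT, and Med26, which binds elongation factors, had 21 (8.03), both without a KO region. With a window of 2000 bp Med26 was called in both lists. The added KO region lay 1.54 kb from an end of the gene and 55.3 kb from its start, away from the WT region. Med4 and Med31 were also in WT only, with 12 and 13 reads.

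In the tail, Med23 and Med16 were kept and Med15 and Med24 were called in WT only. Med23, a target of signalling-dependent activators, had 40 reads in WT and 18 in KO (13.2 and 7.79; 31.0%, 19.5 to 44.5), and Med16 had 20 and 13. Med15 had 16 reads and Med24 12. Of the subunits Med27 to Med30, whose place is by the tail and the head, Med28, Med29 and Med30 were called in WT and all 3 were kept. Med30 had 47 and 25 reads (12.1 and 9.56), Med29 24 and 11 in a region shared with Paf1, and Med28 13 and 12 (48.0%, 27.8 to 68.7).

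The kinase module genes had 0 WT calls of 4. Med13l was called in KO only, with 10 reads and a fold enrichment of 4.33 in a region whose summit lay 382 bp upstream of the start (chr5:118560192-118560451). Med12, Med12l and Med13 had no region at an end in either list. The partners of these proteins in the module, Ccnc, Cdk8 and Cdk19, which encode cyclin C and its kinases, were each called in both lists, with 23 and 13, 13 and 8, and 29 and 17 reads.

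Of the 29 members in neither list, 18 had the nearest WT region more than 10 kb away, with a median of 12.1 kb (1.25 to 309). For Taf1, Taf9b and Med10 a WT region covered a start of the promoter table that lies inside the gene, away from its annotated ends, and for Med12l a region of each list did. For Gtf2ird2 a WT region lay 0.402 kb from such a start. With windows round these starts only, 49 of 72 members were called in WT (68.1%, all genes 36.8%). Of these 49, 19 were kept (38.8%, 25.2 to 53.8), an interval under the 59.8% of all WT-called genes in this setting. This setting leaves out the 11 members that the promoter table lacks. Among them are the kept Med23, Med30, Taf4b, Polr2d and Gtf2e2, with WT fold enrichments from 7.80 to 13.2, and the WT-only Med8, Med24, Taf2 and Taf7. In the main setting the interval of 31.6 to 59.6 holds the 59.4% of all genes. When regions of the lists had to overlap by 1 bp, 41.5% (28.1 to 55.9) of WT-called members were kept, an interval under the 58.9% of all genes.

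In the 22 member regions that overlapped 1 region of the other list, reads were pooled. They held 607 WT and 375 KO summit reads, a KO share of 38.2% (35.1 to 41.3), against 38.5% (38.2 to 38.7) in all 3776 such gene-end regions. The members' pooled share was thus close to that of gene ends in general, and both lay under the depth share of 42.9%. Of the 22, 14 were under the depth share (63.6%), against 75.6% of all. Classes ranged from 36.0% (28.9 to 43.6) for Gtf2 genes and 37.0% for Mediator to 40.3% for Pol II and 40.4% (34.6 to 46.3) for Taf genes. Regions under 30 summed reads had a share of 46.4% (all gene ends 43.8%), those of 30 to 59 reads 37.4% (38.2%) and those of 60 or more 37.0% (37.7%). Regions with few reads can be in this set only where KO reads sufficed for a call.

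**Figure D5:**
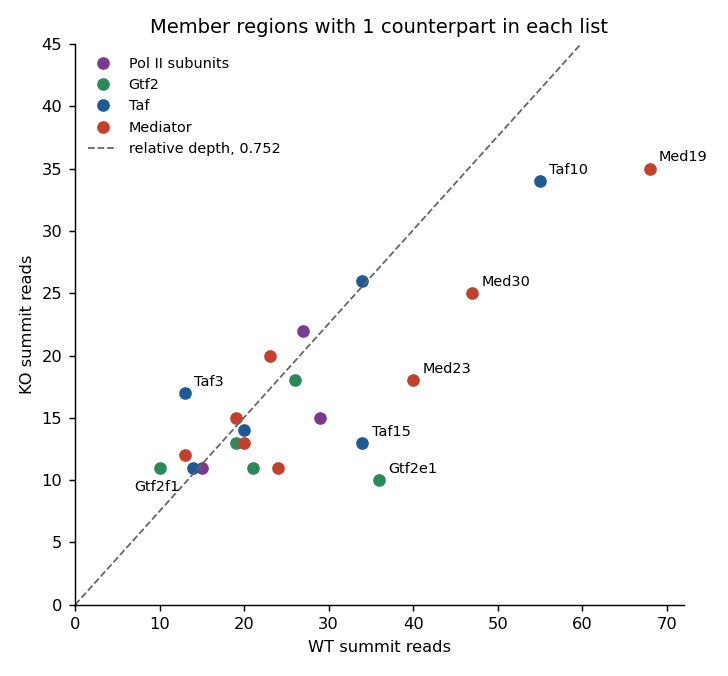
KO summit reads (y axis) against WT summit reads (x axis) for the 22 member regions with 1 counterpart in each list, coloured by class, with the relative depth of 0.752 as a dashed line. Gtf2e1, Taf15, Med23, Med30 and Med19 lie below the line and Taf3 above it.

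Other genes of the transcription cycle were set beside the members. Of the 10 Pol III subunit genes, 9 were called in WT and 6 kept, with Polr3k (16.0 in WT and 11.2 in KO) and Polr3g (10.1 and 9.42) highest, and Polr3b (6.72) and Polr3d (4.60) among those in WT only. Of the 5 Pol I genes, 3 were called in WT and 2 kept. Of 13 preinitiation partners, 8 were called in WT and 6 kept: Ccnc (9.30) and Cdk7 (9.13), the kinase of TFIIH, were in both lists, and Tbp (6.43), the TATA-binding protein, and the helicase gene Ercc2 (6.34) were in WT only. Ercc3, the other TFIIH helicase, was called in KO only (5.56, 12 reads). Of 28 pausing and elongation genes, 25 were called in WT and 12 kept (48.0%, 27.8 to 68.7), with Ccnt2 (10.0) and Cdc73 (9.44) in both lists and Tcea1 (9.69) and Nelfcd (7.69) in WT only. Of 6 termination and phosphatase genes, 5 were called in WT and 2 kept, Pcf11 (9.50) and Xrn2 (7.29). All intervals of the kept shares of these lists hold the 59.4% of all WT-called genes. The shares called in WT stand beside 34.6% of all genes. Their intervals lay above it for the pausing and elongation (71.8 to 97.7), Pol III (55.5 to 99.7) and termination genes (35.9 to 99.6). For the Pol I genes (14.7 to 94.7) and the preinitiation partners (31.6 to 86.1) they hold it.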

How the data were processed

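ATAC-seq was made on 4 samples, 2 per group. Per the labels, each list pools both replicates, so no value per replicate was used. The submitters' processing notes name MACS2 2.1.4, deepTools 3.4.1, Bowtie2, Trim Galore, FastQC, Picard and GATK, and the build mm10. Order and settings, including any transposase shift or removal of duplicates, are not given in the sources used here. Fold enrichment at the summit, a score, the -log10 of p and q and the summit's offset were deposited for each region. The lowest -log10 q was 1.32 in WT and 1.31 in KO, just past a q of 0.05.

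Summit reads were solved from the deposited fold enrichment and -log10 p as a Poisson tail, with a largest misfit of 0.00017 in -log10 p. The solver and the overlaps were tested on simulated data. Depth is known only as relative depth, from the genome background, and sequencing totals were not used here. The least summit reads of a region at the genome background were 7 in both lists. Gene ends came from RefSeq GRCm38.p6, the assembly behind mm10, by overlap of at least 1 bp. The table gives no exons, so none were assigned. Starts came from the RefSeq promoter table, which lacks 11 members.

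No test between groups was made. Described genes were, within each class, the 3 kept members of highest WT fold enrichment, the 3 highest and 2 lowest WT-only members, KO-only members, members with 2 or more WT regions, and the 3 highest and 3 lowest KO shares of reads. The other called members were named after their values were seen. Of the further gene lists, the 2 kept and 2 WT-only genes of highest WT fold enrichment were named, and Cdk8, Cdk19, Ercc3 and Xrn2 besides. Members and lists were chosen with earlier results of these data known, and the bins of reads and fold enrichment after the data were seen. The alternatives changed the window, the use of starts only, the overlap, the length of the WT list, the -log10 q threshold and the members. Scripts ran in Python 3.11.15 with scipy 1.17.1, pandas 2.3.3, numpy 2.4.6 and, for plots, matplotlib 3.10.9.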

Additional observations from a re-analysis of the deposited data

How the results depend on the processing

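Of 82 recomputed values, 68 stayed and 14 moved. A share stayed if it lay within the interval of the main share, and a median if it lay within 10% of the main median. Class shares have wide intervals, such as 28.4 to 99.5 for the kept Pol II genes, so staying within them says little. With a -log10 q of at least 5, 49.4% of members were called in WT (all genes 30.7%) and the median WT fold enrichment was 7.04. With at least 10, 27.7% were called in WT and 9.64% in KO (all genes 19.8% and 8.46%), and the median was 8.47. With the WT list limited to the length of the KO list by fold enrichment, 28.9% of members were called in WT and 30.1% in KO (all genes 21.6% and 21.1%), the median was 8.44, and 75.0% were kept (all genes 77.8%): Pol II 100%, Gtf2 80.0%, Taf 71.4% and Mediator 70.0%. When kept required an overlap of 50% of both regions, 28.3% of members (all genes 47.4%) and 20.0% of Pol II genes were kept. Without members of other complexes or tissues, Taf genes kept 20.0%, against 43.8% in the main setting. This counts as stayed, because the main interval is 19.8 to 70.1. Windows of 500 and 2000 bp, starts only and summits in the window moved no share or median of the members or classes beyond these limits. With starts only, however, the members' kept share (38.8%, 25.2 to 53.8) had an interval under the 59.8% of all genes. The same held when regions had to overlap by 1 bp (41.5%, 28.1 to 55.9, all genes 58.9%). It also held at an overlap of 50% of both regions (28.3%, 16.8 to 42.3, all genes 47.4%). Without members of other complexes or tissues the kept share was 41.3% (27.0 to 56.8), under the 59.4% of all genes in the main setting. Among single genes, Gtf2i lost its call at 500 bp and Taf6l lost its KO call with starts only. Gtf2a1 and Med26 gained a KO call at 2000 bp, by regions that did not overlap the WT regions given for them above. Of the 33 genes that the rule takes, 23 kept their number of calls at a -log10 q of at least 5, 11 at 10, and 18 at equal length. No paired analysis was possible because each list pools both replicates, and for the same reason no replicate could be left out. Called regions with 9 to 11 reads lie close to what the depth can call.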
